A study of Mus musculus with 9 samples.

Results

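The enzymes and transporters that carry glucose to pyruvate, pyruvate to lactate or acetyl-CoA, and acetyl-CoA through the tricarboxylic acid (TCA) cycle were followed in low-MYC and high-MYC mouse embryonic fibroblasts (MEFs). They comprise 35 genes of the 19769 in the RNA-seq table, chosen by name: 15 of glucose uptake and glycolysis, 4 of lactate production and export, 5 of the pyruvate dehydrogenase complex and its control, and 11 of the TCA cycle. All 35 were found in the table. Both groups were primary embryonic cells from Myc-Egfp+/+ mice, in which both copies of the endogenous Myc gene carry a GFP fusion. All cells, low-MYC as well as high-MYC, were exposed to 20 µM MG-132, an inhibitor of the proteasome, for 6 h before they were sorted by GFP. They were kept in medium with 10% fetal bovine serum. Once sorted, they were plated overnight before RNA was extracted. The series also holds FUBP1 ChIP-seq of primary MEFs and TACh-seq of wild-type (WT) MEFs and of MEFs with Fubp1 knocked out and Fubp2 knocked down by siRNA (KOKD), used here for positions only. Each group had 2 libraries, which the figure legends of the study call technical replicates. A p-value therefore compares these libraries and measures a spread that may be technical. The number of embryos behind the cells is not given in the sources used here.

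Glycolysis splits glucose into pyruvate in the cytosol, with hexokinase, phosphofructokinase and pyruvate kinase as its controlled steps. Pyruvate is either reduced to lactate, which leaves the cell through monocarboxylate transporters, or enters mitochondria and becomes acetyl-CoA through pyruvate dehydrogenase, which feeds the TCA cycle. Fibroblasts in culture are known for high glycolytic flux, and several glycolytic genes, Ldha among them, are known targets of MYC, which binds the E-box CACGTG together with its partner MAX.

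Values are fragments per kilobase (FPK) divided by a score of spike-in RNA added in proportion to cell number, called normalized FPK here. They stand for an amount per cell and can be compared between genes, since they are divided by transcript length. A second scale, the share, gives each gene as its parts in 1000000 (ppm) of the summed normalized FPK of its library. The columns summed to 46321 and 48291 in low-MYC cells and to 102853 and 109090 in high-MYC cells. Read numbers are not given; among genes with very low values, the commonest ratio between libraries implied 0.930 to 1.04 times as many reads as in low-MYC replicate 1. All 12 fibroblast markers examined were present in every library, and together they took 7351 and 7156 ppm in low-MYC and 7932 and 7638 ppm in high-MYC cells. Of 30 macrophage markers, 29 were higher per cell in both high-MYC libraries, as were 99% of all genes tested. They summed to 21.6 and 28.4 ppm against 310 and 306 ppm, with 6 of them listed at 0 in low-MYC replicate 1, and the 4 skeletal muscle markers of the table to 210 and 204 ppm against 140 and 133 ppm. The neural markers summed to 53.1 to 70.4 ppm, and the endothelial, epithelial and erythroid markers to at most 3.73 ppm each in any library. In ppm, the endothelial and skeletal muscle sums were lower in both high-MYC libraries, the macrophage, fibroblast, neural and epithelial sums were higher, and the erythroid sums overlapped. Acta1, the skeletal muscle actin, was called lower as a share, by -0.71 on the log2 scale (adjusted p = 0.004 by limma with Benjamini-Hochberg adjustment), but not with the replicate block, without a filter on low values or without any 1 library. The part of these markers in the results was not tested. Fewer cells of a type and less RNA per cell cannot be told apart in bulk libraries.

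Several of these genes have near-identical copies elsewhere in the genome, so the sequences decide how far a value belongs to its gene. The first bases of the coding sequence of Pgk1, phosphoglycerate kinase (chrX:106187100-106203699, plus strand, mm10), are shown with the same stretch of Pgk1-rs7, a processed pseudogene on chromosome 12, from the GENCODE M21 transcripts. They cover bases 2 to 91 and hold no difference.
Pgk1: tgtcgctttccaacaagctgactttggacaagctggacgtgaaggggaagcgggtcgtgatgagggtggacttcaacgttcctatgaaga
Pgk1-rs7: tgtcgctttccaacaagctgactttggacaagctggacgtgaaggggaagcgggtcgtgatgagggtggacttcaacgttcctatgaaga
Over the whole alignment, Pgk1 and Pgk1-rs7 differed at 0 of 1255 bases, and Pgk1 and a second pseudogene, Gm5537 on chromosome 3, at 0 of 1252 bases.

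Ldhb, the heart-type subunit of lactate dehydrogenase (chr6:142490249-142507957, minus strand), and its pseudogene Gm5514 on chromosome 19 can be told apart at 20 of 1002 bases. Bases 853 to 942 of the Ldhb coding sequence are shown because 5 of these differences lie there, in capitals.
Ldhb: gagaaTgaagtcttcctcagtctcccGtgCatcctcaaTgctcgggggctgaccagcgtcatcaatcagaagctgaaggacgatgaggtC
Gm5514: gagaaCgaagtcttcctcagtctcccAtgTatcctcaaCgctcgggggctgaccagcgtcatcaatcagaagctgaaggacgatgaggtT
Suclg2, a beta subunit of succinyl-CoA ligase (chr6:95473009-95718800, minus strand), and Gm15163 on chromosome X differed at 14 of 1302 bases, of which 4 lie in bases 1 to 90 of the coding sequence.
Suclg2: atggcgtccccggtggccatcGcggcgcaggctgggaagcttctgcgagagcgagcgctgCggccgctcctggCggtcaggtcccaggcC
Gm15163: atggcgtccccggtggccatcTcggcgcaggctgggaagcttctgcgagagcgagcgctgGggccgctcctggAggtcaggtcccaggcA

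The E-box CACGTG, which reads the same on both strands, was searched in RefSeq windows (GRCm38.p6) from 250 bases before to 50 bases after each annotated start. Of the 35 genes, 34 matched a window and 4 held the motif, Ldha, Slc16a1, Pfkm and Ogdh; the share was 11.8%, against 11.0% of the 12753 genes of the table with a window and 8.09% of all 27025 genes with one. The 30 bases around each of the 6 motif sites are shown, with the motif in capitals, because these are the genes of the pathway with a canonical MYC motif at a start. All lie on the plus strand.
Ldha first motif, chr7:46845647-46845676: ggtgtcgcagcaCACGTGgagccactcttg
Ldha second motif, chr7:46845744-46845773: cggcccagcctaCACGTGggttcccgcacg
Slc16a1, chr3:104638452-104638481: gcggcgccgggtCACGTGgcgggaaggggg
Ogdh first motif, chr11:6292048-6292077: gtcgcggcgtgtCACGTGgaccggtcgctc
Ogdh second motif, chr11:6292405-6292434: ggcaagaatcctCACGTGgataccatgtaa
Pfkm, chr15:98092441-98092470: aattaagtatgcCACGTGaagtaagtaatt
Ldha held 2 motifs in 1 of its 2 windows. Pfkm held it in 1 of 4 windows, Ogdh in 3 of 6 (2 of which overlap and share the second motif), and Slc16a1 in its only window. By GENCODE M21 both Ogdh sites lie in annotated UTRs, and the other sites in no annotated UTR of these genes. A match is a description of these letters and not a binding site.

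Per cell, every one of the 35 genes was higher in both high-MYC libraries than in both low-MYC libraries, as were 99% of the 11870 genes tested. A mean of 0.1 or more over the libraries was the minimum for a test, which 33 of the 35 met. By limma (Benjamini-Hochberg adjusted p under 0.01 and at least 2-fold), 28 of them were higher, against 55.1% of all genes tested. Both numbers rest on the pseudocount of 0.1, which pulls the fold of low genes towards 0: with one 10 times smaller, 30 of the 33 and 84.9% of all genes passed, and with one 10 times larger, 14 of the 33 and 12.2%. At any fold change all 33 passed, against 97.1% of all genes. The median difference of the 33 was 1.13 on the log2 scale, and that of all genes tested was 1.03. Aldoc and Suclg2 lay under the minimum and were not tested.

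**Figure D1:**
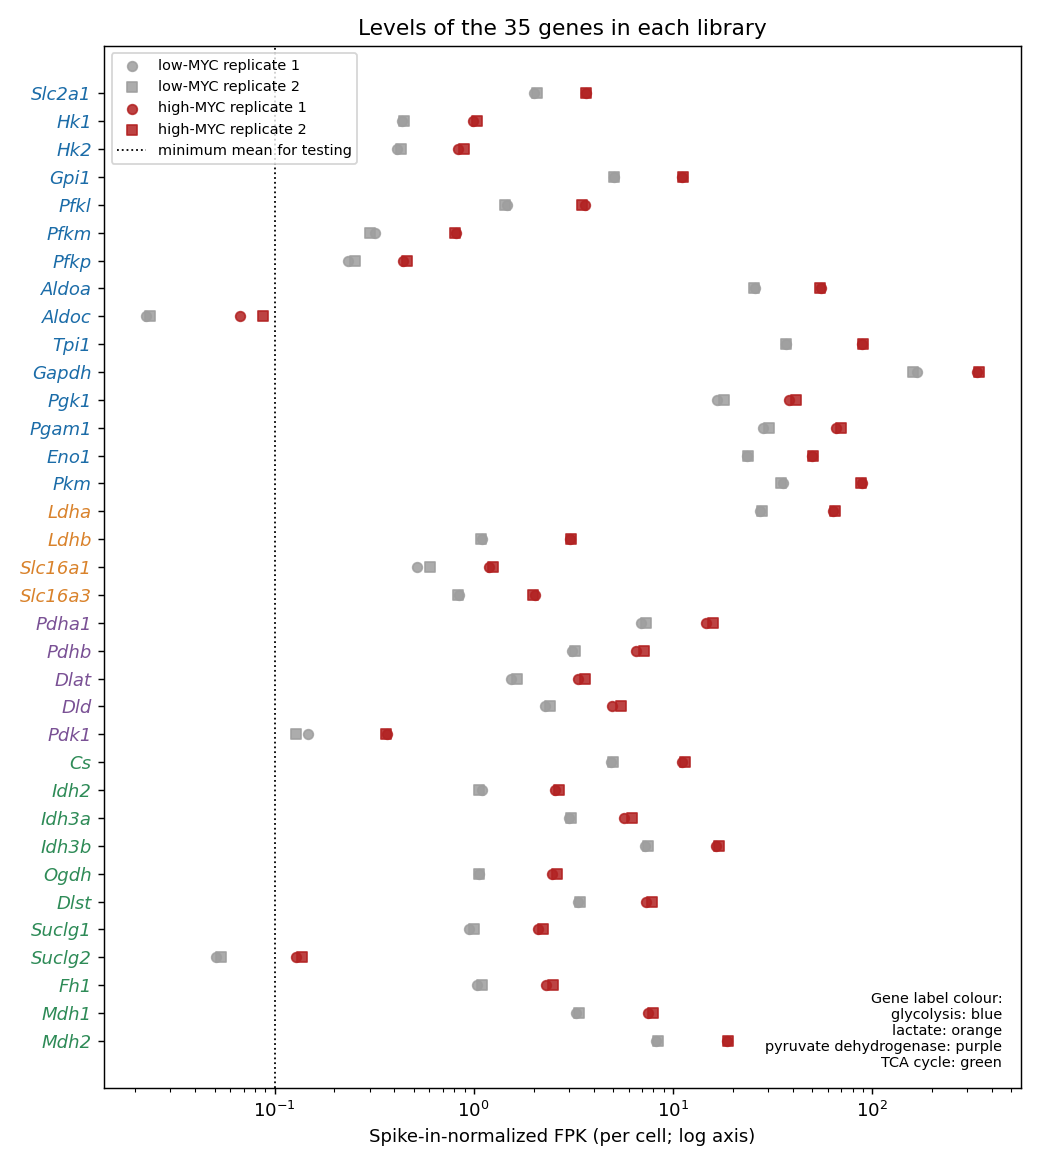
Normalized FPK (log axis) of the 35 genes in each of the 4 libraries, grey for low-MYC and red for high-MYC cells, with circles for replicate 1 and squares for replicate 2; gene labels are coloured by role and the dotted line is the minimum mean of 0.1. In every row the red symbols lie to the right of the grey ones, and levels span from Aldoc, at 0.0226 in low-MYC replicate 1, to Gapdh, at 344 in high-MYC replicate 2.

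As a share of the transcript pool, none of the 33 genes was called by limma at a Benjamini-Hochberg adjusted p under 0.01: 0 were higher, against 1.78% of all genes tested, and 0 lower, against 0.531%. At an unadjusted p under 0.05 there were 8 of the 33, of which 4 were higher and 4 lower. Of the 11870 genes tested, 2218 were higher and 1528 lower at that level. At an adjusted p under 0.05, a looser threshold, Ldhb was higher and Slc2a1, Pfkp and Idh3a were lower, where 7.77% of all genes were higher and 3.89% lower. The libraries of the 2 groups did not overlap in 12 genes that were higher and 9 that were lower, where 33.9% and 28.4% of all genes did the same. The median difference in share was 0.01 on the log2 scale, as it was for all genes tested, and each of the 33 intervals (95%) lay within 0.5 of 0. The amounts of these mRNAs per cell thus differed by about as much as that of the median gene tested.

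**Figure D2:**
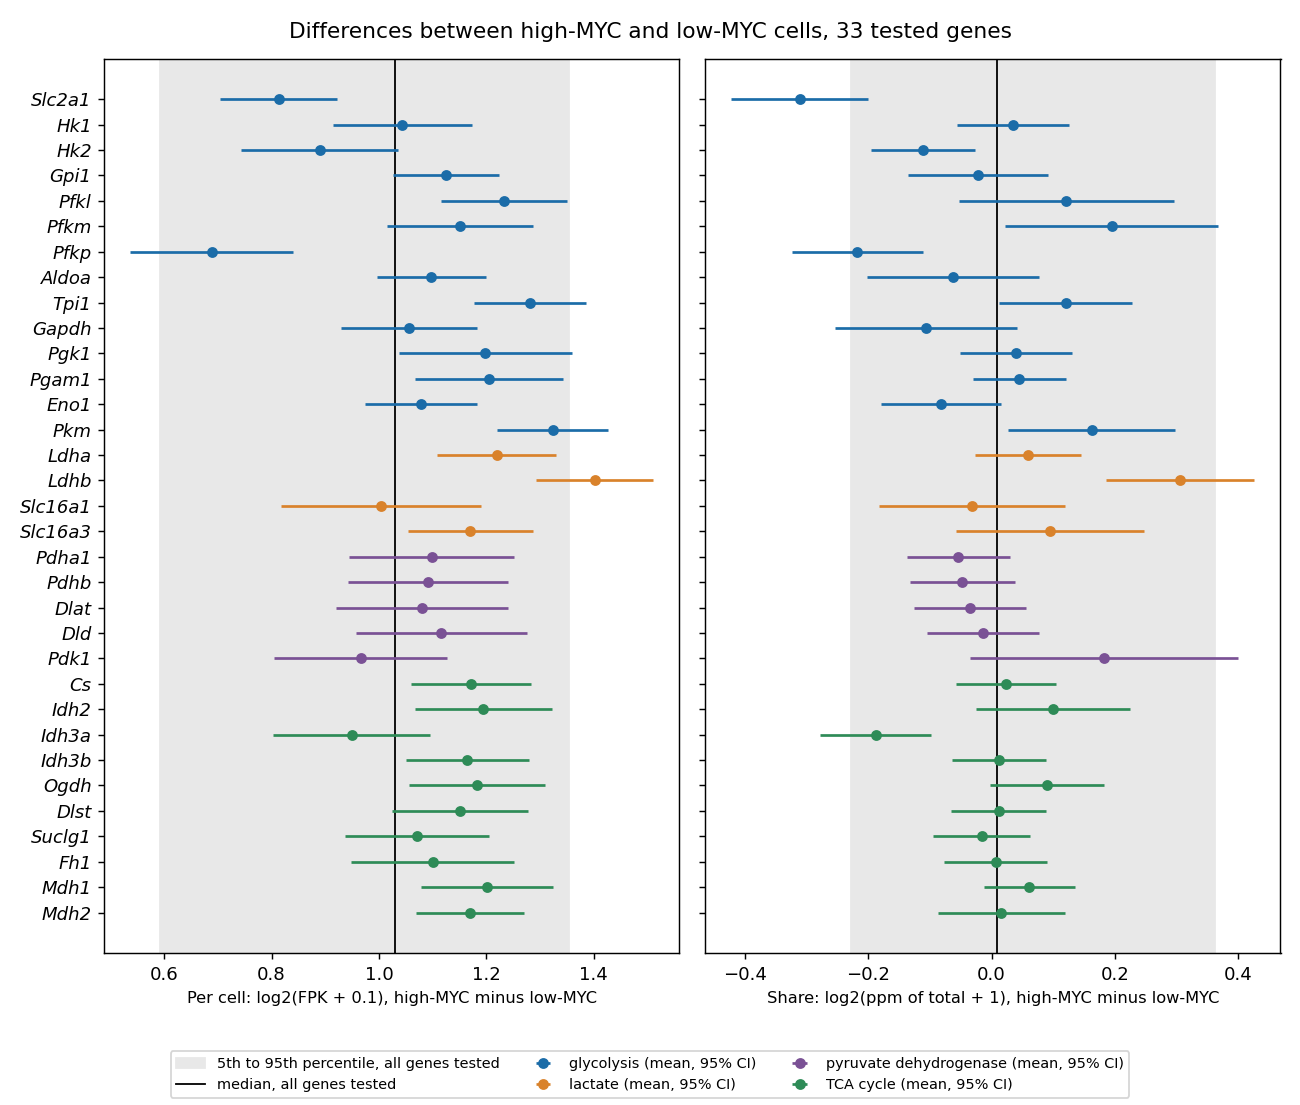
Difference between high-MYC and low-MYC cells on the log2 scale for the 33 tested genes, per cell (left) and as a share (right), as the mean and 95% confidence interval of the limma fit (n = 2 libraries a group); the grey band spans the 5th to 95th percentile of all genes tested and the line is their median. Most genes sit near the line on both sides, with Slc2a1, Pfkp and Idh3a to its left and Ldhb to its right.

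Slc2a1, which encodes the glucose transporter GLUT1 (chr4:119108711-119137983), had the largest decrease in share among the 33. Its normalized FPK was 2.01 and 2.07 in low-MYC and 3.67 and 3.66 in high-MYC cells, and its share was 43.4 and 42.9 ppm against 35.7 and 33.6 ppm. The groups did not overlap on either scale, per cell in one direction and as a share in the other. Per cell it was 0.81 higher on the log2 scale (standard error 0.0427), short of 2-fold, while its share was lower by -0.31 (standard error 0.0405, 95% interval -0.42 to -0.20, adjusted p = 0.0233 by limma with Benjamini-Hochberg adjustment). It made up 96.2% to 97.5% of the summed class I transporters with Slc2a3 and Slc2a4, in every library.

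Hexokinase traps glucose as glucose 6-phosphate. Hk1, the constitutive form, was at 0.439 and 0.445 in low-MYC and 0.995 and 1.04 in high-MYC cells. Hk2, the inducible form, was at 0.413 and 0.431 against 0.837 and 0.897. With the pseudocount the differences per cell were 1.04 for Hk1 and 0.89 for Hk2 on the log2 scale, and without it the ratios of means were 2.30 and 2.06; Hk2 was short of the 2-fold call with the main pseudocount and passed it with the smaller one. As a share Hk1 differed by 0.04 (95% interval -0.06 to 0.13) and Hk2 by -0.11 (-0.20 to -0.03). Hk1 took 50.7% to 51.4% of the hexokinase family in each library, and Hk2 took 48.4% and 49.1% in low-MYC cells and 43.1% and 44.2% in high-MYC cells. The remainder was Hk3, the hexokinase of myeloid cells, which was not a member and was chosen after its values were seen: it took 0.0331% and 0.0646% in low-MYC and 5.51% and 4.52% in high-MYC cells. Its level of 0.000283 and 0.000567 against 0.107 and 0.0918 was under the minimum for a test. It moved in the same direction as the macrophage markers given above, and their part in its level was not tested.

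Gpi1, the isomerase that follows hexokinase, stood at 5.07 and 5.07 in low-MYC and 11.1 and 11.2 in high-MYC cells, with a share difference of -0.02. Phosphofructokinase commits sugar to glycolysis and is built from a liver, a muscle and a platelet type subunit. Pfkl, the liver type, was the most abundant, at 1.47 and 1.43 against 3.62 and 3.49. Pfkm, the muscle type, was at 0.320 and 0.301 against 0.816 and 0.805. Pfkp, the platelet type, was at 0.233 and 0.253 against 0.443 and 0.462. Relative to the transcript pool Pfkm was higher and Pfkp lower in both high-MYC libraries, with share differences of 0.20 (standard error 0.0633, adjusted p = 0.129 by limma with Benjamini-Hochberg adjustment) and -0.22 (standard error 0.0391, adjusted p = 0.0445). Within the family Pfkp made up 11.5% and 12.7% of the summed level in low-MYC and 9.09% and 9.73% in high-MYC cells, and Pfkm 15.8% and 15.1% against 16.7% and 16.9%; these shares have no test.

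The later steps of the pathway held the abundant genes. Aldoa, aldolase, was at 25.8 and 25.5 against 55.3 and 54.7, and its row in the table spans 2 neighbouring annotated genes of that name. Aldoc, the brain-type aldolase, was at 0.0226 and 0.0236 against 0.0669 and 0.0872, and made up at most 0.159% of both together. Tpi1, which interconverts the 3-carbon sugars, was at 36.9 and 36.9 against 89.1 and 90.7. Pkm, pyruvate kinase, was at 35.6 and 35.1 against 88.8 and 88.5. Both were among the genes with the larger differences per cell, 1.28 for Tpi1 and 1.32 for Pkm on the log2 scale, and as shares they were higher by 0.12 (95% interval 0.01 to 0.23) and 0.16 (0.03 to 0.30), with adjusted p = 0.131 and 0.116 by limma with Benjamini-Hochberg adjustment.

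Gapdh, glyceraldehyde 3-phosphate dehydrogenase and often used as a reference gene, was the most abundant of the 35, at 168 and 161 normalized FPK in low-MYC and 338 and 344 in high-MYC cells. It ranked 38th of all genes of the table in low-MYC and 43rd in high-MYC cells. As a share it was 3620 and 3325 ppm against 3286 and 3158 ppm; the 2 groups were separated by less than the gap between the low-MYC libraries, and the difference of -0.11 (95% interval -0.25 to 0.04) did not pass the test. Pgk1 was at 16.7 and 18.1 against 38.5 and 41.7. Pgam1, phosphoglycerate mutase, was at 28.5 and 30.3 against 66.0 and 69.8. Eno1, enolase, was at 23.5 and 24.0 against 49.8 and 50.6. Their share differences were 0.04, 0.04 and -0.08, with intervals that included 0.

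The values of these 4 steps depend on the copies. Eno1b, a protein-coding gene with 99.5% identity to Eno1, was listed at 140 and 137 in low-MYC and 321 and 309 in high-MYC cells, several-fold above Eno1 itself. With 3 pseudogenes it took 85.9% to 87.3% of the summed Eno1 value. Pgk1-rs7 and Gm5537, the copies identical to Pgk1, took 61.6% to 67.6%. Pgam1-ps2, identical to Pgam1 over 765 bases, took 17.4% to 22.2%. Gapdh had 82 listed copies with 22.8% to 25.9% of its sum, of which Gm7336 was the largest at 32.6 and 28.1 against 67.9 and 64.8. The division of reads among identical sequences is an estimate of the quantification and not a measurement, and FPK sums over transcripts of unequal length are approximate. With the copies added, the ratio of high-MYC to low-MYC per cell was 2.26 for Eno1, 2.45 for Pgk1, 2.35 for Pgam1 and 2.09 for Gapdh, beside 2.12, 2.30, 2.31 and 2.08 for the genes alone.

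**Figure D3:**
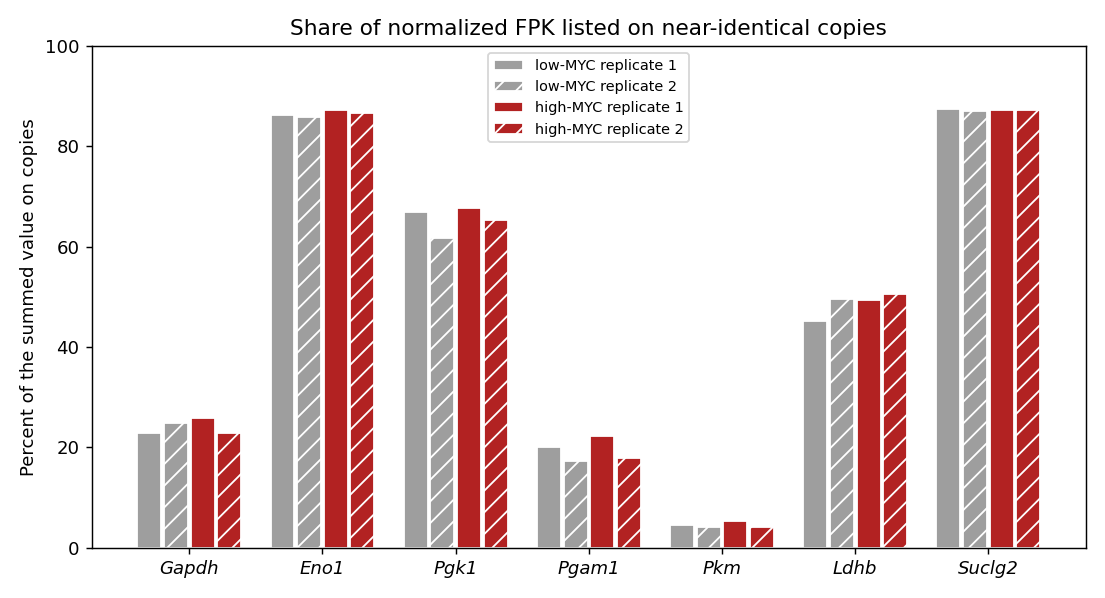
Percent of the summed normalized FPK of a gene and its near-identical copies that was listed on the copies, for 7 genes in each of the 4 libraries (grey low-MYC, red high-MYC, hatched replicate 2; bars start at 0). The share was over 85% for Eno1 and Suclg2 in all libraries and under 6% for Pkm.

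Lactate dehydrogenase converts pyruvate to lactate and back. Ldha, the muscle-type subunit, was at 27.3 and 28.1 against 63.8 and 65.5, and Ldhb at 1.10 and 1.09 against 3.04 and 3.08. Both Ldhb values of high-MYC cells lay above those of low-MYC cells, also as a share, at 29.6 and 28.2 ppm against 23.8 and 22.6 ppm. Ldhb had the largest increase among the 33 tested genes on both scales, 1.40 per cell (standard error 0.0428) and 0.31 as a share (standard error 0.0441, 95% interval 0.19 to 0.43, adjusted p = 0.0292 by limma with Benjamini-Hochberg adjustment). Its copy Gm5514 was listed at 0.907 and 1.07 against 2.97 and 3.14, which is 45.1% to 50.5% of their sum. Adding the copy, an alternative chosen after seeing the data, gave a share difference of 0.38 (adjusted p = 0.00944 by limma). That passed the main threshold, which Ldhb alone did not. Ldhb remained the minor subunit: it took 3.88% and 3.73% of Ldha and Ldhb in low-MYC and 4.55% and 4.49% in high-MYC cells. With the copies of both genes added, it took 6.81% and 7.08% against 8.55% and 8.61%.

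Slc16a1 and Slc16a3 encode the monocarboxylate transporters MCT1 and MCT4, the latter typical of cells that export lactate. Slc16a1 was at 0.521 and 0.601 against 1.20 and 1.25, and Slc16a3 at 0.841 and 0.832 against 2.04 and 1.98. Slc16a1 was just past 2-fold per cell, with 1.00 on the log2 scale, and fell short without low-MYC replicate 1 (0.92) and without high-MYC replicate 2 (0.98). Slc16a3 took 57.7% to 62.5% of the 4 monocarboxylate transporters examined, and the groups overlapped in this share.

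Pyruvate dehydrogenase joins 3 catalytic parts, and its subunits lay close to each other in difference though not in level. Pdha1 and Pdhb, which form the first part, were at 6.89 and 7.31 against 14.7 and 16.0, and at 3.12 and 3.24 against 6.57 and 7.20. Dlat, the second, was at 1.55 and 1.65 against 3.34 and 3.64, and Dld, the third and shared with other complexes, at 2.29 and 2.41 against 4.96 and 5.46. Per cell the 4 were between 1.08 and 1.12 higher on the log2 scale, and as shares between -0.05 and -0.01. Pdk1, a kinase that inactivates the complex, was the least abundant of the 5, at 0.147 and 0.129 against 0.365 and 0.362. Its share difference of 0.18 had an interval from -0.03 to 0.40, and its per-cell difference of 0.97 did not reach 2-fold on the scale with the pseudocount of 0.1, which understates low genes; its ratio of means was 2.64. Pdk4 took 74.2% to 76.4% of the 4 kinases and Pdk1 4.91% to 6.23%.

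Of the 10 TCA cycle genes tested, 9 were at least 2-fold higher per cell, beside 55.1% of all genes. With a pseudocount 10 times larger, 4 of the 10 were, beside 12.2% of all genes. The share differences of the 10 ran from -0.19 to 0.10, with 8 above 0 and 2 below, where 53% of all genes lay above 0. The median absolute share difference was 0.0198, beside 0.109 for the 14 glycolysis genes, a description of these genes without a test. Citrate synthase, Cs, which opens the cycle, was at 4.92 and 5.03 against 11.1 and 11.6. Mdh2, the mitochondrial malate dehydrogenase that closes it, was the most abundant at 8.23 and 8.39 against 18.7 and 18.9, and Mdh1, the cytosolic form, was at 3.26 and 3.37 against 7.54 and 7.96. The groups overlapped in share for Cs and Mdh2 and did not for Mdh1.

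The exception was Idh3a, the catalytic subunit of the NAD-dependent isocitrate dehydrogenase. It was at 3.00 and 3.06 in low-MYC and 5.68 and 6.23 in high-MYC cells, and its share was 64.8 and 63.5 ppm against 55.3 and 57.1 ppm, without overlap. The share difference was -0.19 (standard error 0.0330, 95% interval -0.28 to -0.10, adjusted p = 0.0428 by limma with Benjamini-Hochberg adjustment). Its partner Idh3b was at 7.28 and 7.54 against 16.4 and 17.1, with a share difference of 0.01 (95% interval -0.06 to 0.09). Of the 3 subunits including Idh3g, Idh3a made up 24.0% and 23.7% in low-MYC and 20.7% and 21.6% in high-MYC cells. Idh2, the NADP-dependent mitochondrial enzyme, was at 1.11 and 1.07 against 2.55 and 2.68.

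The 2-oxoglutarate dehydrogenase subunits Ogdh and Dlst were at 1.07 and 1.07 against 2.48 and 2.63, and at 3.33 and 3.41 against 7.37 and 7.86. Suclg1, the alpha subunit of succinyl-CoA ligase, was at 0.951 and 1.00 against 2.10 and 2.22, and Fh1, fumarase, at 1.04 and 1.10 against 2.31 and 2.50. The share differences of these 4 lay between -0.02 and 0.09, with intervals that included 0. Suclg2 was at 0.0506 and 0.0537 against 0.129 and 0.138, while its copy Gm15163 was listed at 0.351 and 0.358 against 0.882 and 0.947, 86.9% to 87.4% of the sum. Without the copy Suclg2 appears to be 9.13% to 10.4% of the beta subunits beside Sucla2, and with it 43.6% to 47.8%.

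Summed, the 15 glycolysis genes took 0.744% and 0.705% of the column total in low-MYC and 0.726% and 0.699% in high-MYC cells. The TCA cycle genes took 0.0739% and 0.0726% against 0.0743% and 0.0731%. Lactate genes took 0.0642% and 0.0635% against 0.0682% and 0.0658%, and pyruvate dehydrogenase genes 0.0302% and 0.0305% against 0.0291% and 0.0299%. The groups overlapped for glycolysis and the TCA cycle, and separated, by little, for the lactate genes (higher) and the pyruvate dehydrogenase genes (lower). All 35 together took 0.913% and 0.871% against 0.898% and 0.868%.

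The ratio of summed glycolysis to summed TCA cycle levels within a library, which does not depend on the spike-in score, was 10.1 and 9.70 in low-MYC and 9.78 and 9.56 in high-MYC cells, with means of 9.89 ± 0.262 and 9.67 ± 0.158 (SD, n = 2). The groups overlapped. Gapdh alone was close to 45.2% of the glycolysis sum in high-MYC cells. Without it the ratio was 5.17 and 5.13 against 5.36 and 5.24, now higher in both high-MYC libraries, and as a ratio of medians over genes it was 1.69 and 1.66 against 1.96 and 1.80. With the near-identical copies added it was 16.9 and 16.3 against 17.0 and 16.0. How far glycolytic mRNA exceeded TCA cycle mRNA thus depended on the handling of Gapdh and the copies much more than on the group.

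**Figure D4:**
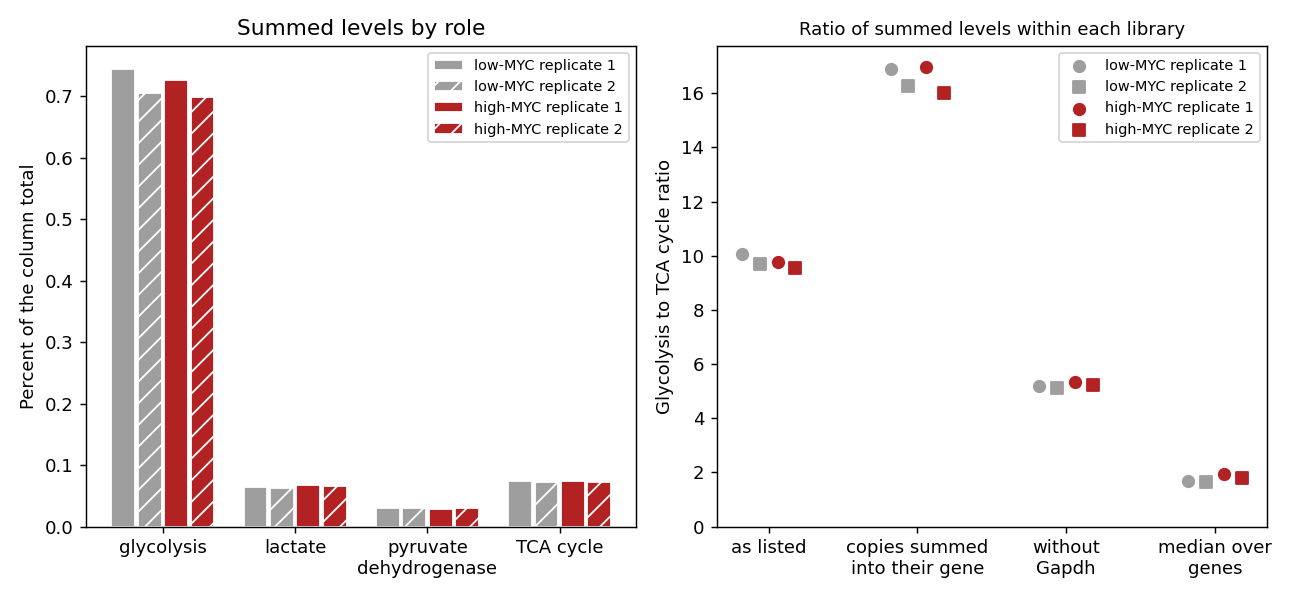
Left, percent of the column total taken by each role in the 4 libraries (bars from 0; grey low-MYC, red high-MYC, hatched replicate 2). Right, ratio of glycolysis to TCA cycle levels in each library under 4 ways of summing; the ways lie far apart, from 1.66 to 17.0, while the 4 libraries within each lie close together.

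Other genes of glucose and mitochondrial metabolism were taken as 9 lists. No gene of 8 lists was called as a share at an adjusted p under 0.01 by limma. The HIF pathway and hypoxia list held 1 higher and 1 lower of 13 tested, where 1.78% of all genes were higher and 0.531% lower. Hif1a, the oxygen-regulated transcription factor that drives glycolytic genes, was at 1.47 and 1.56 in low-MYC and 4.50 and 4.83 in high-MYC cells, with a share difference of 0.44 (standard error 0.0293, adjusted p = 0.0062 by limma with Benjamini-Hochberg adjustment). Vegfa, a classical HIF target, was at 2.66 and 2.63 against 3.99 and 4.15, with a share difference of -0.53 (standard error 0.0392, adjusted p = 0.00792). Neither call held with the replicate block (adjusted p = 0.0173 for Hif1a and 0.0171 for Vegfa by limma), without a filter on low values (0.0143 and 0.0218) or without any 1 library (up to 0.0629 and 0.0698); Vegfa also missed it without the trend (0.0102). The differences kept their sign and lay between 0.36 and 0.46 for Hif1a and between -0.57 and -0.45 for Vegfa under all alternatives run. Ddit4, another HIF target, was at 5.26 and 5.16 against 9.86 and 9.74, with a share difference of -0.25 that did not pass (adjusted p = 0.0623). The list had a median of -0.09 with 5 genes above 0 and 8 below, where all genes tested had a median of 0.01 and 53% lay above 0. At an adjusted p under 0.05 by limma, Ndrg1 (-0.36) and Ero1l (-0.30) were also lower, where 3.89% of all genes were lower. These 2 genes were chosen after their values were seen.

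**Figure D5:**
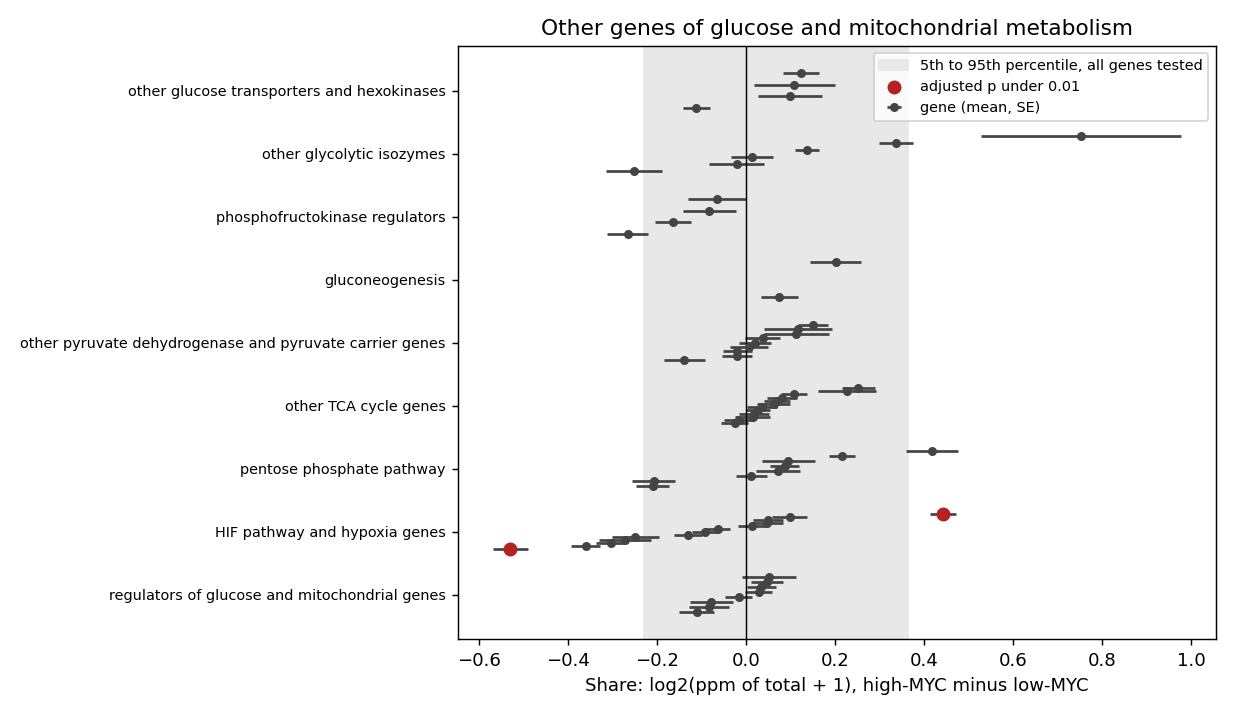
Difference in share between high-MYC and low-MYC cells on the log2 scale for the tested genes of 9 related lists, as the mean and standard error of the limma fit; red marks an adjusted p under 0.01 and the grey band spans the 5th to 95th percentile of all genes tested. Hif1a at 0.44 and Vegfa at -0.53 are the marked genes.

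Of the 12 other TCA cycle genes tested, all 12 were at least 2-fold higher per cell, beside 55.1% of all genes. With a pseudocount 10 times larger, 2 of the 12 were, beside 12.2% of all genes. The most abundant of the 12 were the succinate dehydrogenase subunits Sdhd, at 5.49 and 5.83 against 12.5 and 13.3, and Sdha, at 2.77 and 2.83 against 6.55 and 6.996. The median share difference of that list was 0.05. All 4 phosphofructokinase regulators tested lay below 0 as a share, with a median of -0.12, where 53% of all genes lay above 0. Pfkfb3, chosen after its values were seen, had a share difference of -0.27 (adjusted p = 0.0426 by limma with Benjamini-Hochberg adjustment). On the per-cell scale with the pseudocount of 0.1, 0 of these low genes were called at least 2-fold higher, beside 55.1% of all genes. With the smaller pseudocount 1 was called, beside 84.9% of all genes. The ratios of means were 2.10 for Pfkfb4 and 2.06 for Pfkfb2, and 1.96 for Tigar and 1.71 for Pfkfb3. Tigar was at 0.309 and 0.325 against 0.622 and 0.624, and Pfkfb4 at 0.120 and 0.109 against 0.240 and 0.242. In the pentose phosphate pathway, 5 of 8 were at least 2-fold higher per cell, beside 55.1% of all genes. With the larger pseudocount 1 of the 8 was, beside 12.2% of all genes. The most abundant genes of the pathway, Taldo1 and Pgd, had share differences of -0.21 and -0.21 (adjusted p = 0.072 and 0.0447 by limma with Benjamini-Hochberg adjustment). H6pd and G6pdx, chosen after their values were seen, had 0.42 and 0.22 (adjusted p = 0.0273 and 0.0253 by limma).

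Bsg, the chaperone of the lactate transporters, was at 23.1 and 24.0 against 56.1 and 60.1, with a share difference of 0.14 (adjusted p = 0.051 by limma with Benjamini-Hochberg adjustment), and Eno3, the muscle enolase, at 2.58 and 2.47 against 4.78 and 4.68, with -0.25 (adjusted p = 0.0827). Emb, another chaperone of these transporters, and Pgam2, the muscle mutase, were chosen after their values were seen. Emb was at 0.200 and 0.207 against 0.573 and 0.634, with a share difference of 0.34 that passed only the looser threshold (adjusted p = 0.0182), and Pgam2 at 0.102 and 0.0688 against 0.471 and 0.322, with 0.75 (standard error 0.225, adjusted p = 0.111), both by limma with Benjamini-Hochberg adjustment. Adpgk and Slc2a10 differed in share by -0.11 and 0.12, Pck2 and G6pc3 by 0.07 and 0.20, and Pdk4 and Pdp1 by 0.04 and 0.15. Myc itself was at 9.81 and 9.86 against 20.3 and 20.5, a share difference of -0.11 (adjusted p = 0.154), and its network partner Mlx differed by -0.08. The groups were sorted by MYC protein, which the mRNA does not measure.

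Of the TACh-seq reads, which mark nuclease-accessible chromatin, 4881417 are listed. The deposited list carries WT in its name, but both the WT and the KOKD samples refer to it. None of its columns names a library, so WT and KOKD MEFs are not compared here. Within 500 bases of the outermost annotated start, the 35 genes had a median of 139 listed reads, from 0 to 292, and the 11870 genes tested in RNA-seq had a median of 95. Pkm had 292, Mdh1 267 and Pgk1 265. Aldoc, Hk1 and Ldha were at 0 there, 3 of 35, where 23.9% of all tested genes were at 0; the outermost start of Ldha lies upstream of the window with the E-boxes shown above. Of the 35, only Pfkm lies on chromosome 15, to which all 166 deposited FUBP1 peaks belong. None overlapped it, and the nearest lay 426750 bases away.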

How the data were processed

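The 4 RNA-seq libraries of sorted MEFs, 2 technical replicates a group, were analysed. The authors trimmed reads, used TopHat and mouse transcripts (mm10) for alignment and the E/M quantification of Partek for transcript levels, and divided by transcript length and by a spike-in score; the deposited values are a signal relative to cell number. Versions are not given in the sources used here. Reads shared by near-identical genes are split by this estimate. The deposited TACh-seq score is the mapping quality per read, per the values, and was not used as a level; the FUBP1 peaks give positions. Each value column was matched to a library.

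Tests used limma 3.58.1 (lmFit, eBayes with trend) in R 4.3.3 on log2(normalized FPK + 0.1) and on log2(ppm of the column total + 1), for the 11870 genes whose mean reached 0.1, with Benjamini-Hochberg adjustment over all of them. Calls needed an adjusted p under 0.01, and per cell also 2-fold. Copies were transcripts of the table with at least 95% identity over 80% of their length (blastn 2.17.0, GENCODE M21). The fits were tested on simulated data. Gene ends lie 1 base past the annotation and were corrected. The members and lists were chosen with earlier results of these data known. Named are all members and, of each other list, the genes called as a share and the 2 with the highest mean. Further genes were named to complete an enzyme family or after their values were seen. Genes of these lists that passed only the looser threshold were not all named. Alternatives covered the pseudocount, filter, trend, replicate block, thresholds, scaling, copies and each library. Python 3.11.15, pandas 2.3.3, numpy 2.4.6 and matplotlib 3.10.9 were used.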

Additional observations from a re-analysis of the deposited data

How the results depend on the processing

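Of the 33 tested genes, 28 were at least 2-fold higher per cell; this became 14 with a pseudocount 10 times larger and 30 with one 10 times smaller, and stayed between 27 and 29 without each library in turn. Over all genes that count, 6540, became 1448 with the larger pseudocount, 10076 with one 10 times smaller, 11166 at 1.5-fold and 11530 at any fold change, and was 5683 to 7374 without each library. As a share, 0 of the 33 were higher and 0 lower; 1 was higher with the copies summed (Ldhb, an alternative chosen after seeing the data), 1 higher and 1 lower with a minimum mean of 1 (fewer genes tested; Ldhb and Slc2a1), 1 higher and 3 lower at an adjusted p under 0.05, and 0 and 0 without each library. Over all genes, 211 higher and 63 lower became 72 and 8 without a filter, 922 and 462 at an adjusted p under 0.05, 0 to 56 and 0 to 5 without each library (0 without either high-MYC library; the lone library left in a group was assumed to vary like the other group), and the lower count became 123 with a minimum mean of 1 and 41 without the trend. The ratio of glycolysis to TCA cycle in high-MYC over low-MYC cells, 0.978, was 1.03 without Gapdh and 1.13 as medians over genes, and 0.960 to 0.997 without each library. Apart from the named constructions, the cause was not tested.

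The replicate numbers were shared by both groups, and the deviations of same-numbered libraries correlated by 0.0810 per cell and 0.0707 as a share. A shift common to all genes drops out of such a correlation. It therefore cannot show whether same-numbered libraries were prepared together. With the replicate block, 28 of the 33 were still at least 2-fold higher per cell and 6556 of all genes; as a share 0 of the 33 and, over all genes, 0 higher and 0 lower were called, with 1 residual degree of freedom. In share, 8 genes changed sign in 17 fits without being called. Read depth is unknown, so no counting error can be given.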
